A study of Mus musculus with 4 samples.

Results

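Collagen-modifying and crosslinking enzymes were followed across 4 cultures of mouse bone marrow cells, with 1 one-colour Agilent array per culture. The 10 members were P4ha1, P4ha2, Plod1, Plod2, Plod3, Serpinh1, Lox, Loxl1, Loxl2 and Bmp1, and all non-control probes whose gene name equalled a member were taken. This gave 15 probes for 10 genes, out of 41174 probes and 19539 named genes on the array. P4ha1, P4ha2, Plod3, Loxl2 and Bmp1 had a pair of probes each, and the other members had 1.

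All cells came from BALB/C mouse marrow. The anti-IL-10 sDC culture and the sDC culture grew from lineage-depleted haematopoietic progenitors seeded on a monolayer of Sca-1+CD117-Lin- mesenchymal stem cells (MSC), received lipopolysaccharide (LPS), a bacterial product that matures dendritic cells, on day 4, and had formed by day 9. In the anti-IL-10 sDC culture a neutralizing antibody against the cytokine IL-10 was given as well, at 10 µg/mL every 2 days. Mature dendritic cells (maDC) were purified imDC that then spent 4 to 5 days in LPS at 10 ng/mL. Immature dendritic cells (imDC) were the loosely attached clusters of marrow on day 4, grown with the cytokines IL-4 (5 ng/mL) and GM-CSF (10 ng/mL) and selected with beads against CD11c, a dendritic cell integrin. IL-4 and GM-CSF are listed at the same doses for maDC, and neither is listed for the anti-IL-10 sDC and sDC cultures. The labels call each population purified, but the sources used here give neither the way sDC were parted from the stromal monolayer nor the LPS dose of those cultures.

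Collagen chains are modified in the endoplasmic reticulum before they leave the cell. Prolyl 4-hydroxylases, whose catalytic subunits include P4ha1 and P4ha2, hydroxylate prolines and so stabilise the triple helix, and the lysyl hydroxylases Plod1, Plod2 and Plod3 hydroxylate lysines that later carry sugars or crosslinks. Serpinh1, also called HSP47, is a chaperone dedicated to procollagen. Outside the cell Bmp1 cuts off the C-terminal propeptide of procollagen and activates the precursor of lysyl oxidase, and Lox, Loxl1 and Loxl2 oxidise lysines so that collagen and elastin crosslink. Fibroblasts and other stromal cells are the main makers of fibrillar collagen in marrow and connective tissue.

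The probes decide what is seen of each gene, so those on which the results turn are shown with their position in the mouse build mm9, as the file headers give it. Each probe has 60 bases, of which the 30 at the 5′ end are printed, except for 1 Plod3 probe printed whole. No exon or UTR annotation of mm9 was used here. The brighter P4ha2 probe lay at chr11:53945032-53945091 and its dim probe at chr11:53940882-53940941, both on the plus strand. The Serpinh1 probe lay at chr7:106493971-106494030 and the Loxl1 probe at chr9:58138570-58138629, both on the minus strand. Brighter and dimmer Loxl2 probes lay at chr14:70095254-70095313 and chr14:70092141-70092200 on the plus strand. For Bmp1 the brighter probe was at chr14:70874552-70874611 and the dimmer one at chr14:70886652-70886711 on the minus strand. For Plod3 the brighter probe was at chr5:137472079-137472138 on the plus strand, and the dimmer one covered chr5:137466696-137466864, a span of 169 bases, 109 more than the probe itself.
P4ha2, brighter probe: cagatatttcaggtagaagatgtctcagtg
P4ha2, dim probe: aggcctcatttaggaaataacatgtcagtt
Serpinh1: ggggaggggaaatatgagcctttgttgctt
Loxl1: aacgtggtgagatgcaacatccactacaca
Loxl2, brighter probe: caccaaaggcttcgggactcctgtgtgtag
Loxl2, dimmer probe: tgaagtgccagaatcagatttctctaacaa
Bmp1, brighter probe: cacactgtattgtgtatagccggtgtccct
Bmp1, dimmer probe: cggggacgcccccaccagctcaaattccga
Plod3, brighter probe: tgcccaccacccggggtactcgatacatca
Plod3, dimmer probe: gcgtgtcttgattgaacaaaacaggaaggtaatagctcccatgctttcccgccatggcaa

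Each array held 43379 non-control spots, of which 61.2% to 69.7% were well above background, and 0 were saturated. Levels are given as log2 of a probe's intensity over the array's 75th percentile, so 0 is the level of the 75th percentile, and levels of different probes cannot be set against each other. The scanner software's own error of a level was about 0.14 log2 units for bright spots, and the error of a difference, printed after ±, was about 0.20. It covers the measurement of a spot, not culture, RNA or labelling. With 1 array per group there is no spread between cultures, so no test was possible. Genes were counted where the difference reached 2-fold, which is 1 on the log2 scale. The anti-IL-10 sDC, sDC and maDC arrays shared a slide, and the imDC array was on a different one. Comparisons with imDC therefore also compare slides, and these cannot be told apart. Time in culture differed as well, since imDC were taken on day 4, maDC 4 to 5 days later and sDC by day 9. It cannot be told apart from LPS or co-culture in these comparisons. The sDC cultures also differed from imDC and maDC in their starting cells and in the listed IL-4 and GM-CSF. These cannot be told apart from co-culture either. The differences maDC minus imDC and sDC minus imDC share the imDC array, and the sDC array enters 3 of the 4 comparisons.

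The labelled cell types were set against marker lists, because stromal cells are the main makers of fibrillar collagen. Dendritic cell markers (11 genes, among them Itgax, which encodes CD11c, and class II antigen presentation genes) had a summed signal, in multiples of the 75th percentile, of 8.86 in anti-IL-10 sDC, 9.73 in sDC, 433 in maDC and 314 in imDC. All 11 were at least 2-fold lower in sDC than in imDC, with Itgax at -1.60 in sDC and 2.93 in imDC. Macrophage markers (14 genes) summed to 657, 714, 293 and 54.7 in the same order of cultures, and 14 of 14 were at least 2-fold higher in sDC than in imDC. Of 18 stromal markers, 13 were at least 2-fold higher and 2 at least 2-fold lower in sDC than in imDC. Their sums were 85.3 in anti-IL-10 sDC, 131 in sDC, 151 in maDC and 164 in imDC, with 17, 17, 13 and 16 of 18 well above background. Thy1 and Acta2 made up 43.5%, 38.7%, 91.1% and 92.2% of these sums, and without them the sums ran the other way, at 48.2, 80.4, 13.5 and 12.7. A sum weights each probe by its brightness, so it is read across arrays and not across lists. The culture labelled sDC thus had low dendritic cell markers and high macrophage markers, and most but not all stromal markers were higher in it than in imDC. Pdgfra, a receptor of mesenchymal cells, was well above background in anti-IL-10 sDC and sDC (-1.06 and -0.09) and not in maDC or imDC. Thy1 and Vcam1 were the 2 stromal markers at least 2-fold lower in sDC than in imDC (-2.03 and -1.55). In bulk RNA, fewer cells of a type and less RNA per cell cannot be told apart.

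Among the prolyl hydroxylases, P4ha2 separated the cultures most. Its brighter probe read 2.999 in anti-IL-10 sDC, 3.38 in sDC, 1.74 in maDC and -3.46 in imDC. The imDC culture stood alone at the low end, and the step between the other arrays was much smaller. P4ha2 was 36.8-fold higher in maDC than in imDC (5.20 ± 0.21) and 114-fold higher in sDC than in imDC (6.84 ± 0.21). It was also 3.11-fold higher in sDC than in maDC (1.63 ± 0.20). The other P4ha2 probe was not well above background on any of the 4 arrays and gave no value. Where the median of both probes was used instead, sDC minus maDC came to 0.51, under 2-fold.

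P4ha1, the more widely made catalytic subunit, followed the same order over a narrower range. Its brighter probe read 2.92 in anti-IL-10 sDC, 3.11 in sDC, 2.22 in maDC and 0.58 in imDC. The level was 3.13-fold higher in maDC than in imDC (1.65 ± 0.20) and 5.80-fold higher in sDC than in imDC (2.54 ± 0.20). Between sDC and maDC it differed by 0.89 ± 0.20, under 2-fold. The other P4ha1 probe gave 1.45, 2.30 and 0.85 for these comparisons, each within 0.24 of the brighter one. P4hb, the non-catalytic partner subunit of the enzyme, stayed within 2-fold in all 4 comparisons, with differences between -0.13 and 0.30. P4ha3, a further catalytic subunit, was not well above background on any array.

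The lysyl hydroxylases did not share 1 pattern. Plod2, which hydroxylates the lysines of collagen telopeptides, read 0.16 in anti-IL-10 sDC, 0.31 in sDC, -0.61 in maDC and -2.54 in imDC. Its order of cultures was that of P4ha1, and it was 3.80-fold higher in maDC than in imDC (1.93 ± 0.20) and 7.23-fold higher in sDC than in imDC (2.85 ± 0.20). Plod1, which acts on lysines of the helix, read 0.21, 0.07, -1.69 and -1.70 in the same order of cultures. Both sDC cultures were thus high and both conventional dendritic cell cultures low, with 0.01 ± 0.21 between maDC and imDC. Plod1 was 3.42-fold higher in sDC than in imDC (1.77 ± 0.20) and 3.40-fold higher in sDC than in maDC (1.77 ± 0.21).

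Plod3, which both hydroxylates lysines and adds sugars to them, was the member with the narrowest range. Its brighter probe read 4.60 in anti-IL-10 sDC, 4.60 in sDC, 3.87 in maDC and 3.67 in imDC, and 0 of 4 comparisons reached 2-fold. The probes of Plod3 disagreed about imDC. The dimmer one, whose aligned span is longer than the probe, read 0.69, 0.32, -0.28 and 0.29, so its sDC and imDC levels differed by 0.04 ± 0.20, against 0.93 ± 0.20 by the brighter probe. For maDC minus imDC the probes gave opposite signs, -0.57 and 0.20.

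Serpinh1, the procollagen chaperone, set the sDC cultures apart from both others. It read 3.01 in anti-IL-10 sDC and 4.02 in sDC, against -3.29 in maDC and -3.18 in imDC. The sDC cultures lay above the conventional dendritic cells by more than 6 log2 units, while maDC and imDC differed by -0.11 ± 0.22. Serpinh1 was 147-fold higher in sDC than in imDC (7.20 ± 0.21) and 158-fold higher in sDC than in maDC (7.31 ± 0.22). The fibrillar collagens Col1a1 and Col1a2, the chains of type I collagen, were likewise higher in sDC than in maDC, by 8.25 and 7.34, and differed by -0.09 and -0.14 between maDC and imDC.

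The crosslinking enzymes spread between these patterns. Lox, the prototype of the lysyl oxidases, read 1.42 in anti-IL-10 sDC, 1.89 in sDC, 0.25 in maDC and -4.77 in imDC. As with P4ha2, imDC stood far below the other cultures. Lox was 32.4-fold higher in maDC than in imDC (5.02 ± 0.21), 101-fold higher in sDC than in imDC (6.66 ± 0.21) and 3.12-fold higher in sDC than in maDC (1.64 ± 0.20). Loxl1, an enzyme tied to elastic fibres, read 0.58 in anti-IL-10 sDC, 1.32 in sDC and -6.75 in imDC, and was not well above background in maDC (-5.79). It was 267-fold higher in sDC than in imDC (8.06 ± 0.32) and at least 108-fold higher in sDC than in maDC, and no value was taken for maDC minus imDC.

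Loxl2, which acts on basement membrane and fibrillar collagens, was measured by a pair of probes. The brighter probe read 0.16 in anti-IL-10 sDC, 1.22 in sDC, -1.35 in maDC and -5.20 in imDC, and the dimmer one -2.73, -2.10, -3.69 and -7.09. Both probes gave the same order of cultures, with sDC highest and imDC lowest. By the brighter probe Loxl2 was 14.4-fold higher in maDC than in imDC (3.85 ± 0.22), 85.6-fold higher in sDC than in imDC (6.42 ± 0.22) and 5.95-fold higher in sDC than in maDC (2.57 ± 0.20). By the dimmer probe these differences were smaller, at 3.40 ± 0.36, 4.98 ± 0.35 and 1.59 ± 0.22. Loxl3, a paralogue, was higher in maDC than in imDC by 2.58 and in sDC than in imDC by 2.87. Loxl4, another paralogue, was well above background in sDC alone (-5.73).

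Bmp1 was the member whose highest level was in maDC by the brighter probe. Its brighter probe read -1.59 in anti-IL-10 sDC, -1.02 in sDC, 0.28 in maDC and -2.08 in imDC. It was 5.11-fold higher in maDC than in imDC (2.35 ± 0.20), 2.08-fold higher in sDC than in imDC (1.06 ± 0.20) and 2.46-fold lower in sDC than in maDC (-1.30 ± 0.20). The dimmer Bmp1 probe read -2.57 in anti-IL-10 sDC, -2.16 in maDC and -3.89 in imDC, and its sDC level lay 0.16 ± 0.21 above that of maDC, within the scanner error. The probes therefore disagreed on whether Bmp1 was lower in sDC than in maDC, and gave the same direction for both comparisons with imDC. Pcolce, which enhances the cleavage of procollagen by Bmp1, was higher in sDC than in imDC by 6.79 and higher in sDC than in maDC by 5.79.

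**Figure D1:**
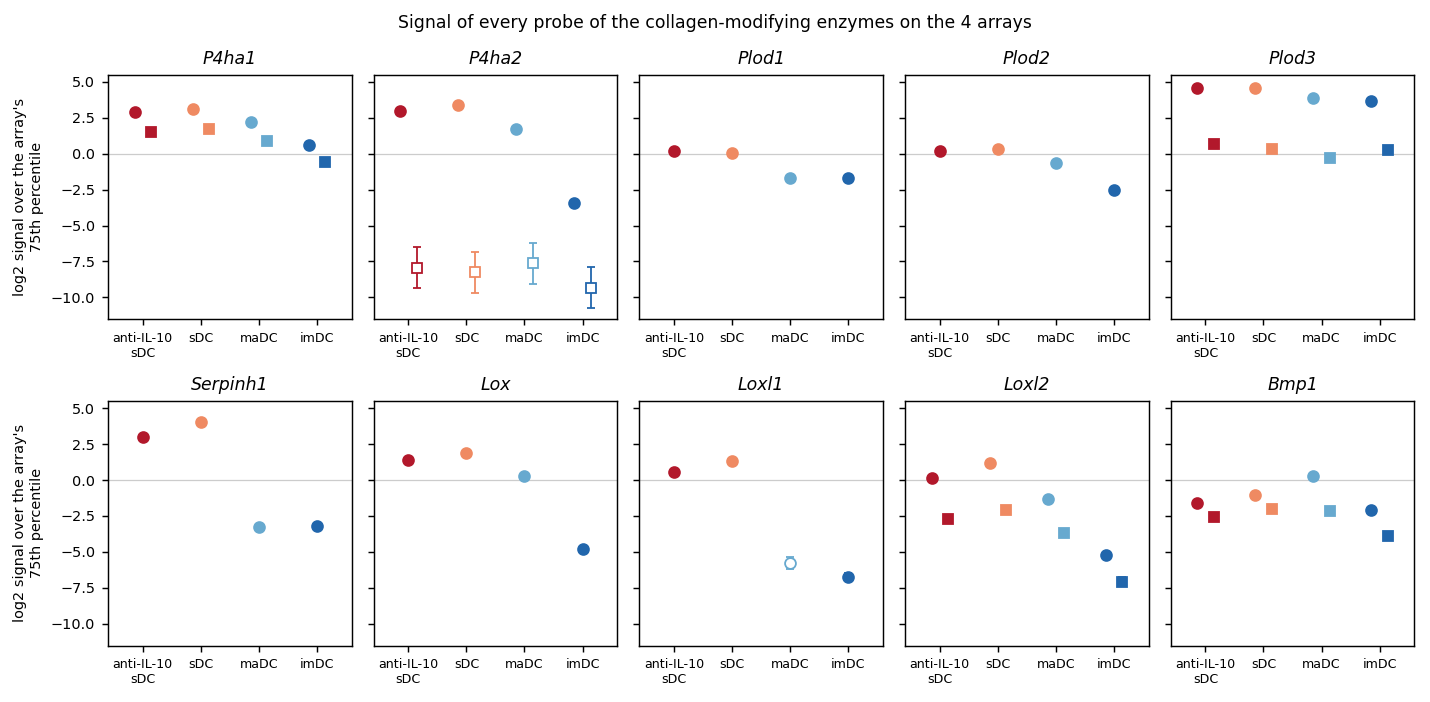
Levels of all 15 member probes, 1 panel per gene, as log2 intensity over the array's 75th percentile (y axis) on the anti-IL-10 sDC, sDC, maDC and imDC arrays (x axis). Circles are the probe that represents the gene, squares the other probe, open symbols are probes not well above background, and bars are the scanner software's error, mostly smaller than the symbol. Serpinh1 and Loxl1 are high in the sDC cultures and low in maDC and imDC, while P4ha2, Lox and Loxl2 are low in imDC and intermediate in maDC.

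Over the members, LPS-matured cells were set against immature ones, which had spent less time in culture. At least 2-fold higher in maDC than in imDC were 6 of 9 members with a value, P4ha1, P4ha2, Plod2, Lox, Loxl2 and Bmp1, and 0 were lower. The median difference was 1.93, against 0.19 over all 13937 genes with a value, of which 21.6% were at least 2-fold higher and 10.7% at least 2-fold lower. Plod1, Plod3 and Serpinh1 stayed within 2-fold, and by the probe that represents each gene their maDC and imDC levels were within 2 scanner errors of each other. The dimmer Plod3 probe, at -0.57 ± 0.20, was not. A difference as high as that of P4ha2 or higher was seen in 0.330% of all genes, and as that of Lox in 0.416%. Stromal markers were mixed in this comparison: of 15 with a value, 7 were higher and 2 lower, and their median was 0.01. Fstl1 and Dcn, which encode secreted stromal proteins, were 5.08 and 5.02 higher in maDC, and the 2 lower ones were Nt5e (-1.935) and Fn1 (-1.27). Sparc, which encodes a collagen-binding matrix protein, differed by -0.26, and Pdgfra was not well above background on either array. Their part in the result was not tested.

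For sDC against imDC, 9 of 10 members were at least 2-fold higher and 0 lower, with Plod3 just short of 2-fold (1.91-fold). Bmp1 was just past it, and fell short with quantile normalization (0.95) and in the deposited value table (0.96), which leaves 8 of 10. The median difference was 4.64, against 0.21 over 14852 genes, of which 25.4% were at least 2-fold higher and 16.1% at least 2-fold lower. Differences of 6.4 or more were seen for P4ha2, Serpinh1, Lox, Loxl1 and Loxl2, and each of these was reached by under 1% of genes (0.135% for Loxl1 and 0.579% for Loxl2). The sizes depend on how the weak imDC signal was corrected for background. With normexp correction the differences were 5.84 for Loxl1, 5.69 for Lox, 5.26 for Loxl2, 6.40 for P4ha2 and 6.78 for Serpinh1, still far past 2-fold. The stromal marker list had a median of 4.56 here and the macrophage list 4.69, and their part in the members' result was not tested.

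For sDC against maDC, 6 of 10 members were at least 2-fold higher, with a median of 1.64. These were P4ha2, Plod1, Serpinh1, Lox, Loxl1 and Loxl2. Bmp1 was at least 2-fold lower by its brighter probe alone, and P4ha1, Plod2 and Plod3 lay between 0.73 and 0.93, under 2-fold. Over 14426 genes 14.2% were at least 2-fold higher and 16.8% at least 2-fold lower, with a median of 0.03. Serpinh1 and Loxl1 stood apart from the other members, which differed by 2.57 or less. Stromal markers had a median of 4.77 between these arrays, with 11 of 17 at least 2-fold higher and 2 lower.

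**Figure D2:**
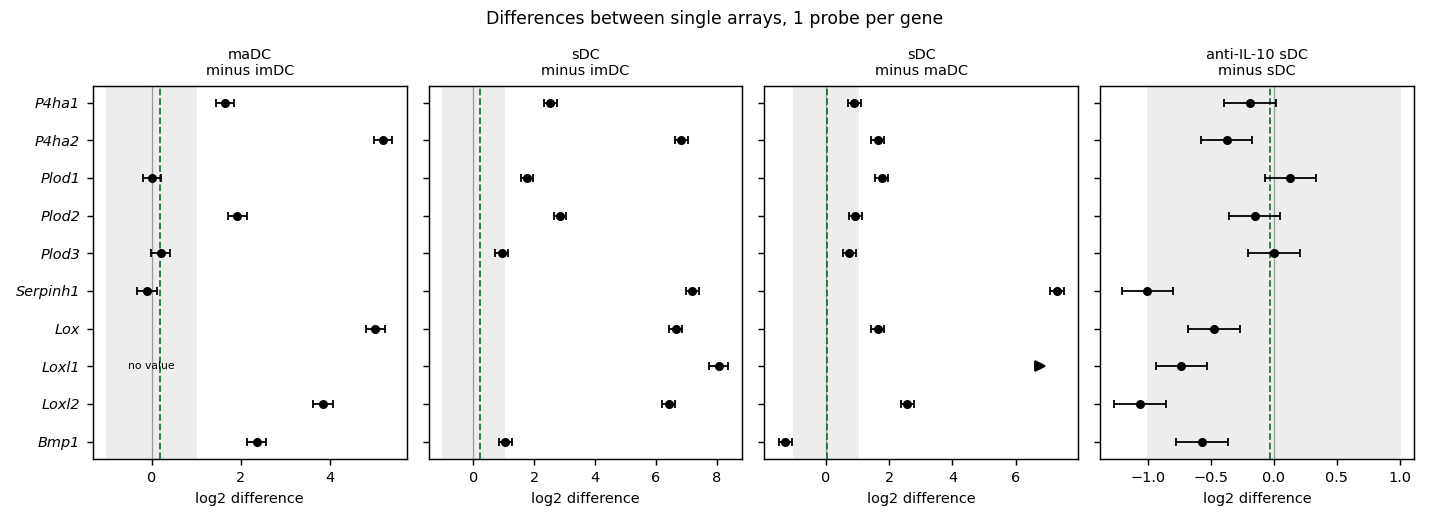
Log2 differences of the 10 members (rows) in the 4 comparisons (panels, each with its own x axis), with the scanner software's error as bars. The grey band marks less than 2-fold, the green dashed line the median of all genes, and the triangle a lower bound. Most members lie right of the band against imDC, Serpinh1 and Loxl1 lie far right for sDC minus maDC, and Serpinh1 and Loxl2 lie at its left edge for anti-IL-10 sDC minus sDC.

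The antibody comparison asks what neutralizing IL-10 changed in the stromal co-culture. Differences were small: 0 members were at least 2-fold higher and 2 of 10, Loxl2 and Serpinh1, at least 2-fold lower in anti-IL-10 sDC than in sDC. Over 14220 genes 0.851% were at least 2-fold higher and 1.26% at least 2-fold lower. Loxl2 was 2.10-fold lower (-1.07 ± 0.20) by its brighter probe and 1.54-fold lower (-0.63 ± 0.21) by the dimmer one. Serpinh1 was 2.01-fold lower (-1.01 ± 0.20), at the edge of the fixed size. Differences as low or lower were seen in 1.03% of genes for Loxl2 and in 1.22% for Serpinh1.

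At a size of 1.5-fold, 3 members were lower (Loxl1 joined, at -0.74 ± 0.20) and 0 higher, against 5.41% of all genes lower and 2.07% higher. Bmp1 was just short of this size by both probes (-0.57 ± 0.21 each). Lox differed by -0.48 ± 0.20 and P4ha2 by -0.38 ± 0.20. P4ha1 (-0.19), Plod2 (-0.15), Plod1 (0.13) and Plod3 (0.00 by its brighter probe, 0.37 by the dimmer) lay nearer to 0. The lowest values were those of the chaperone and of 2 crosslinking enzymes, and for all 5 hydroxylases the antibody and sDC levels of the representing probe lay within 2 scanner errors of each other. Of 10 members 9 lay below 0, as did 8203 of 14220 genes, and 1 of the 9, Plod3, lay at 0 within rounding and was above 0 under 4 alternatives. The members' median was -0.43, against -0.03 over all genes.

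Stromal genes were lower in the same comparison. Of 17 stromal markers with a value, 12 were at least 1.5-fold lower and 0 higher in anti-IL-10 sDC than in sDC, with a median of -0.78. Of 6 collagen and elastin genes, 5 were at least 1.5-fold lower, among them Col1a1 (-0.80) and Col3a1 (-0.98), and their median was -0.79. Macrophage markers had a median of -0.19, with 3 of 14 at least 1.5-fold lower, and dendritic cell markers -0.14. The part of these cell type markers in the members' differences was not tested.

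**Figure D3:**
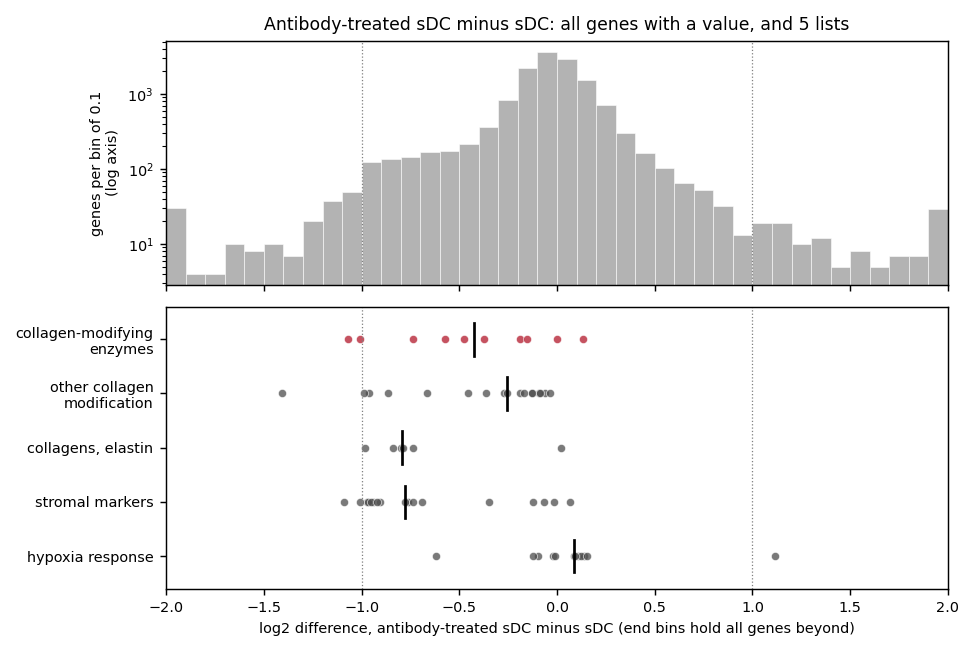
Anti-IL-10 sDC minus sDC. The upper panel counts all genes with a value per 0.1 log2 units (log axis, end bins hold all genes beyond), and the lower panel shows 1 point per gene for 5 lists, with the median as a bar and dotted lines at 2-fold. The collagen-modifying enzymes (median -0.43), the collagens and elastin (-0.79) and the stromal markers (-0.78) lie left of 0, and the hypoxia genes (0.09) lie near it.

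The wider collagen machinery was read through 23 further genes of modification and crosslinking. Between maDC and imDC 7 of 15 with a value were at least 2-fold higher and 0 lower, with Loxl3 (2.58) and Tgm2, a transglutaminase (2.12), the furthest. Between sDC and imDC 9 of 18 were higher and 0 lower, led by Pcolce (6.79), Fkbp10, a collagen prolyl isomerase (6.68), Adamts2, which removes the N-terminal propeptide (5.58), and P3h3, of the prolyl 3-hydroxylase family (4.91). Crtap, a subunit of the prolyl 3-hydroxylase complex, was 1.13 higher in maDC and 1.97 higher in sDC than in imDC. Between sDC and maDC 6 of 17 were higher, Fkbp10 by at least 87.9-fold, and 2 were lower, P3h2 (at least 3.49-fold) and Tgm2 (2.54-fold).

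With the antibody all 17 of these genes with a value lay below 0 (median -0.25), against 8203 of 14220 over all genes. Pcolce2, a relative of Pcolce, was at least 2-fold lower (-1.41), and Pcolce (-0.99), Fkbp10 (-0.96) and Adamts2 (-0.86) were next. The collagens differed among themselves outside the type I chains. Col3a1, the chain of type III collagen, was at least 10.9-fold higher in maDC than in imDC and 390-fold higher in sDC than in maDC, and Eln, which encodes elastin, stayed within 2-fold in all 4 comparisons.

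Some members, P4ha1, P4ha2, Plod2, Lox and Loxl2 among them, are known in other cell types as targets of the hypoxia-inducible factors. For this reason 12 further hypoxia response genes were read beside the members. Between maDC and imDC 8 of 12 were at least 2-fold higher, against 21.6% of all genes, and 0 lower. The median was 1.73, led by Adm (3.70), Ddit4 (3.12), Vegfa (2.78) and Bnip3 (2.24). Between sDC and imDC 10 of 12 were higher, against 25.4% of all genes, with a median of 2.97, led by Ankrd37 (4.84) and Adm (4.52). Between sDC and maDC 6 of 12 were higher, against 14.2% of all genes, led by Pdk1 (3.02), with a median of 1.12. In anti-IL-10 sDC against sDC 1 of 12, Ddit4 (1.11), was at least 2-fold higher, against 0.851% of all genes, and the median was 0.09. The sources used here do not give the oxygen level of the cultures, and a part of hypoxia in the members' differences was not tested.

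**Figure D4:**
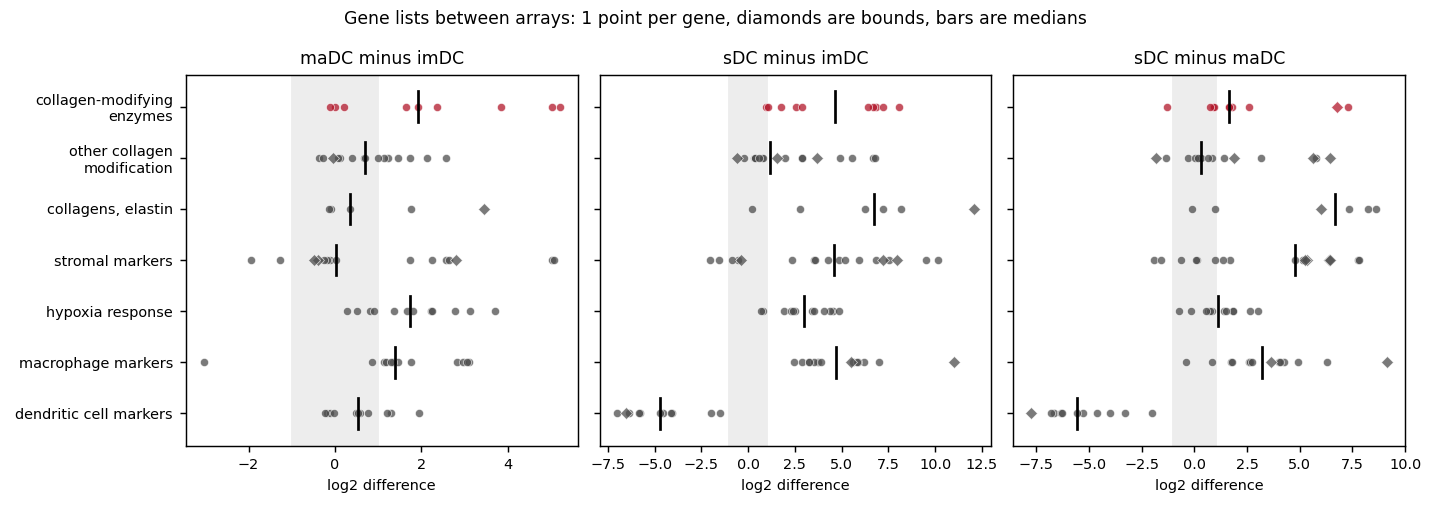
Log2 differences of 7 gene lists (rows), 1 point per gene, in maDC minus imDC, sDC minus imDC and sDC minus maDC (panels, each with its own x axis). Bars are medians, diamonds are bounds and the grey band is less than 2-fold. The members' medians (1.93, 4.64 and 1.64) stand beside those of the hypoxia genes (1.73, 2.97 and 1.12) and of the stromal markers (0.01, 4.56 and 4.77).

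Upstream sequence was at hand for 5 of the 10 members (P4ha1, P4ha2, Plod1, Plod3 and Serpinh1), from RefSeq in the build GRCm38.p6. The 250 bases before the gene start are printed for 3 of them with contrasting levels: P4ha2, higher in maDC and sDC than in imDC, Serpinh1, higher in sDC than in maDC and imDC, and Plod3, within 2-fold throughout. The letters run 5′ to 3′ on the gene's strand, and capitals mark the hypoxia response core ACGTG or GCGTG on either strand. The P4ha2 window is chr11:54100674-54100923 (plus), the Serpinh1 window chr7:99353240-99353489 (minus) and the Plod3 window chr5:136986769-136987018 (plus).
P4ha2: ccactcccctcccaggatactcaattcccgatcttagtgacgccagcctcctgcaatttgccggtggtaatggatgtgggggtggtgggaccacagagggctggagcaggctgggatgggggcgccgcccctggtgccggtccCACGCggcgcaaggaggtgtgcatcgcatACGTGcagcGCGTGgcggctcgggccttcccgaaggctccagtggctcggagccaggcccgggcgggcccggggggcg
Serpinh1: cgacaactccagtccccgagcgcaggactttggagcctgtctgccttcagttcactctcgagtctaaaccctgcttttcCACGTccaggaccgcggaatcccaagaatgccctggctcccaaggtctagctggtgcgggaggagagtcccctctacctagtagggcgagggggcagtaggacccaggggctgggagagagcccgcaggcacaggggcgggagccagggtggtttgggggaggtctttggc
Plod3: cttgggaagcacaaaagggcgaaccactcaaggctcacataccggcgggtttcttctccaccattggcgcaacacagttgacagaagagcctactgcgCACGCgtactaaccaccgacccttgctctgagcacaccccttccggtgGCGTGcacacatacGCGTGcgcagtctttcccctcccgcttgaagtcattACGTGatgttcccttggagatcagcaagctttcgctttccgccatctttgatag

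ACGTG was found on either strand in 4 of 5 member windows (P4ha1, P4ha2, Plod3 and Serpinh1), against 16.6% of all 32851 windows of this length. GCGTG was found in 4 of 5 (P4ha1, P4ha2, Plod1 and Plod3), against 28.2%. The inverted pair of a heat shock element, GAANNTTC, was in 0 of 5, against 6.69% of all windows. The GC box core GGGCGG, a motif common in promoters, was in 4 of 5 (P4ha1, P4ha2, Plod1 and Serpinh1), as often as either hypoxia core, against 32.7% of all windows. The 4 motifs were searched separately on both strands, with overlaps allowed, and the member windows were richer in G and C (55.6% to 70%) than the median window (52.4%). Both forms of the core are held by Plod3, which stayed within 2-fold, and by P4ha2, which was higher in maDC and sDC than in imDC. A relation of the letters to the levels was not tested. A match is a description of the letters in these windows.

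Likeness over the 4 arrays was measured as the Euclidean distance between levels after each gene's mean was taken off, over 15686 genes. P4ha2 and Lox were each other's nearest gene, 0.20 log2 units apart, followed for both by Abca1 (0.33). The nearest genes to Serpinh1 were Col1a2 (0.16) and Ankrd1 (0.23). Loxl1 was nearest to Cnn1 (0.05) and Col8a1 (0.30), with its maDC level not well above background. Loxl2 was nearest to Ddah1 (0.23) and Galnt18 (0.36). Within the list, P4ha1 and Plod2 were 0.28 apart, Serpinh1 and Loxl1 0.90, and Lox and Loxl2 0.93.

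The remaining members had near neighbours outside the list. The nearest gene was Epm2a for P4ha1 (0.05), Tulp4 for Plod2 (0.09), Zfp467 for Plod1 (0.04), Rwdd3 for Plod3 (0.02) and Taar2 for Bmp1 (0.21). With 4 arrays such distances describe these arrays only. The distances to the nearest gene were near or below the scanner error of a difference, so the rank of near genes is uncertain.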

How the data were processed

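Per the labels' protocols, RNA of 4 mouse cultures was labelled with Cy3 and put on 1 array each. The authors' scanner tables hold background-subtracted intensity values. Per the file headers the extracting software was Agilent Feature Extraction 10.5.1.1 (9.1 per the submitters' processing notes). The deposited value table was found to be on a log2 scale, with correlations of 0.997 to 1.00 with log2 intensity across probes and 1 common median (6.30), and served as an alternative. Its normalization is not stated in the sources used here.

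Log2 intensity minus the array's 75th percentile over non-control spots was taken, leaving out outlier-marked spots (0 among member probes). Probes were named by symbol (27957) or synonym (4813) through RefSeq's GRCm38.p6 gene table. The other 8404 were not matched there and entered no count over genes and no likeness. The probe with the highest mean level represented a gene. Where 1 side was not well above background, that side was raised to the array's lowest signal well above background if it lay under it, giving "at least". Genes dim on both arrays, or whose bound was under 1-fold in the brighter array's direction, gave no value. Calculations, quantile normalization among them, used Python 3.11.15 and pandas 2.3.3. For normexp correction limma 3.58.1 in R 4.3.3 was used. The taking of differences and bounds was tested on simulated levels, with known changes put into probes that were not dim. Quantile normalization was checked on a small example. Percentile scaling, naming of probes, probe choice and normexp were not part of the test. All 10 members were named with all probes. Also named were up to 4 genes per list and comparison with the largest differences, listed partner genes, and the 1 or 2 nearest genes by likeness. Single cell type markers were named after their values were seen. The members and lists were chosen with earlier results of these data known. The 9 alternatives covered normalization, background correction, filters, probe choice and size.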

Additional observations from a re-analysis of the deposited data

How the results depend on the processing

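The 9 alternatives included 2 other sizes. Of 270 member differences recomputed under an alternative, 261 kept their sign, 231 moved by less than the scanner error, and 0 of those past 2-fold changed sign. Part of the 270 could not move. The alternatives on dim probes leave members well above background on all 4 arrays unchanged. The median over a gene's probes leaves members with 1 probe unchanged. The counts of members past 2-fold, or past 1 of the 2 other sizes, came out within 1.5 times of the reported count in 66 of 72 cases. Many of these were 0 both times. The number at least 2-fold lower in anti-IL-10 sDC than in sDC, 2 as reported, was 1 with quantile normalization, 1 with the percentile over spots well above background on all 4 arrays, 1 with the median over a gene's probes and 0 at 3-fold. The number at least 2-fold lower in sDC than in maDC, 1 as reported, was 0 with the median over probes and 0 at 3-fold. Serpinh1 in the antibody comparison lay between -1.04 and -0.97 in these settings. Bmp1 in sDC minus imDC came to 0.95 with quantile normalization and 0.96 in the deposited table, so 8 members in place of 9 were past 2-fold. Signs changed for small differences: Plod1 in maDC minus imDC was -0.13 with quantile normalization and in the deposited table and -0.04 with the other percentile, Serpinh1 was 0.06 with normexp, Plod3 was -0.19 with the median over probes, and Plod3 in the antibody comparison was 0.05, 0.05, 0.01 and 0.18 under quantile normalization, the deposited table, the other percentile and the median over probes. The largest move, 2.88, was in P4ha2 for sDC minus imDC with the median over probes, since its other probe is dim. Quantile normalization moved the median of all genes measured on both arrays to 0.04 in maDC minus imDC and 0.06 in sDC minus imDC, against 0.20 and 0.21 with the 75th percentile. Genes at least 2-fold higher and lower with the antibody numbered 121 and 179, against 44 and 46 with normexp, 304 and 575 with no filter on dim probes, and 45 and 65 with only probes well above background on all 4 arrays. The cause of these moves was otherwise not tested. No paired analysis was possible because each group has 1 array, and no array could be left out. The number of arrays limits the precision of every value.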
